A study of Homo sapiens with 6 samples.

Results

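Aminoacyl-tRNA synthetases are the enzymes that join each amino acid to its transfer RNA, and their genes were read here in HepG2 cells, a human liver cancer line, given ellagic acid (EA) or its solvent. The genes were chosen by symbol from a fixed list of 20 cytosolic enzymes and 16 of the mitochondrial ones, whose symbols end in 2. All 36 were found among the 52408 genes of the count table, and all 36 passed the filter on low counts that left 15648 genes for testing. The rule uses symbols and no measured value, though the members were chosen with earlier results of these data known.

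The cells were kept for 24 h with 50 µM EA, a plant polyphenol, or with an equal volume of DMSO, and total RNA was sequenced from 3 libraries of each group. Both groups are the same unmodified line, and no label says whether each library had its own culture. The p-values therefore cover the spread among these 6 libraries alone, and that spread may be technical. Libraries held 15738089 to 19202292 reads with EA and 22987425 to 25973621 with DMSO. Of 8 hepatocyte markers all were read, with a summed level of 48959 to 51818 CPM (a gene's reads relative to the scaled size of its library) with DMSO and 13160 to 13672 with EA. APOB alone went from 29447 to 3080 CPM. Of the 8 markers 7 were called lower and APOA1 higher. The APOA1 libraries of the groups overlapped (1002 to 1143 CPM with DMSO, 1124 to 1655 with EA). The fibroblast list summed to 16.4 to 17.5 CPM with DMSO and 4.56 to 6.34 with EA, the leukocyte list to 3.13 to 3.39 and 3.07 to 3.81, and the endothelial list to 2.32 to 2.44 and 3.07 to 3.92. These sums hide opposite moves. In the leukocyte list CSF1R was called higher (0.109 to 1.85 CPM) and CD14 lower (1.66 to 0.215 CPM). In the endothelial list VWF was called higher (1.07 to 3.14 CPM) and CDH5 lower (1.30 to 0.336 CPM). The part of these shifts in the results was not tested. PTPRC, CD3E, COL1A2 and DCN were at 0 in every library. EA replicate 3 stood apart. Its counts differed from those of EA replicates 1 and 2 by a chi-square of 12.9 and 15.1 per degree of freedom, against 3.46 to 4.43 for the other pairs of libraries within a group.

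As background, a synthetase activates its amino acid with ATP and passes it to the matching tRNA. The enzymes form a pair of unrelated structural classes. Class I enzymes carry a Rossmann fold and class II enzymes an antiparallel sheet. Several cytosolic enzymes sit in the multisynthetase complex, which is held together by the scaffold proteins AIMP1, AIMP2 and EEF1E1. Mitochondria translate their own messages with separate enzymes encoded in the nucleus, except that GARS and KARS each give rise to both forms. Uncharged tRNA activates the kinase GCN2 (EIF2AK4), which acts through eIF2 on the transcription factor ATF4, and synthetase genes are among the known targets of ATF4.

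Most synthetase genes were lower with EA, in both compartments. Of the 20 cytosolic genes 14 fell, 3 rose and 3 were not called. A call here is an adjusted p under 0.05 by the quasi-likelihood test of edgeR, with p-values adjusted by Benjamini-Hochberg over all genes. Of the 16 mitochondrial genes 12 fell and 4 were not called. None of the 16 rose (1 was higher at an unadjusted p under 0.05, and 1 by DESeq2 and 0 by limma-voom). Over all genes tested 81.0% were called, 40.5% as lower and 40.5% as higher. The share of cytosolic genes called in either direction, 85.0%, was therefore near the background, while the share called lower was 70.0% of cytosolic and 75.0% of mitochondrial genes. The median log2 fold change was -0.67 in the cytosolic and -0.62 in the mitochondrial group, against 0.00 (0.0044) over all genes. Levels were scaled within each library, so lower means lower relative to the other genes. In a bulk culture less RNA in each cell and fewer cells that make it cannot be told apart.

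The changes were of moderate size. A fall of at least 2-fold was called for 2 cytosolic and 5 mitochondrial genes, and such a fall was called for 21.5% of all genes. No synthetase rose by 2-fold, while 23.4% of all genes did. The median size of change, without its sign, was 0.67 on the log2 scale for the 36 genes and 0.89 over all genes. The SD of the log2 fold changes was 0.63 among the 36 and 1.91 among all genes. The libraries of the groups did not overlap for 18 of 20 cytosolic and 15 of 16 mitochondrial genes, against 82.9% of all genes. Of these, 3 cytosolic and 1 mitochondrial gene lay higher with EA (41.4% of all genes) and 15 and 14 lay lower (41.5% of all genes). Without EA replicate 3, 19 of 20 cytosolic and 13 of 16 mitochondrial genes were called, beside 13613 of 16444 genes in that fit.

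**Figure D1:**
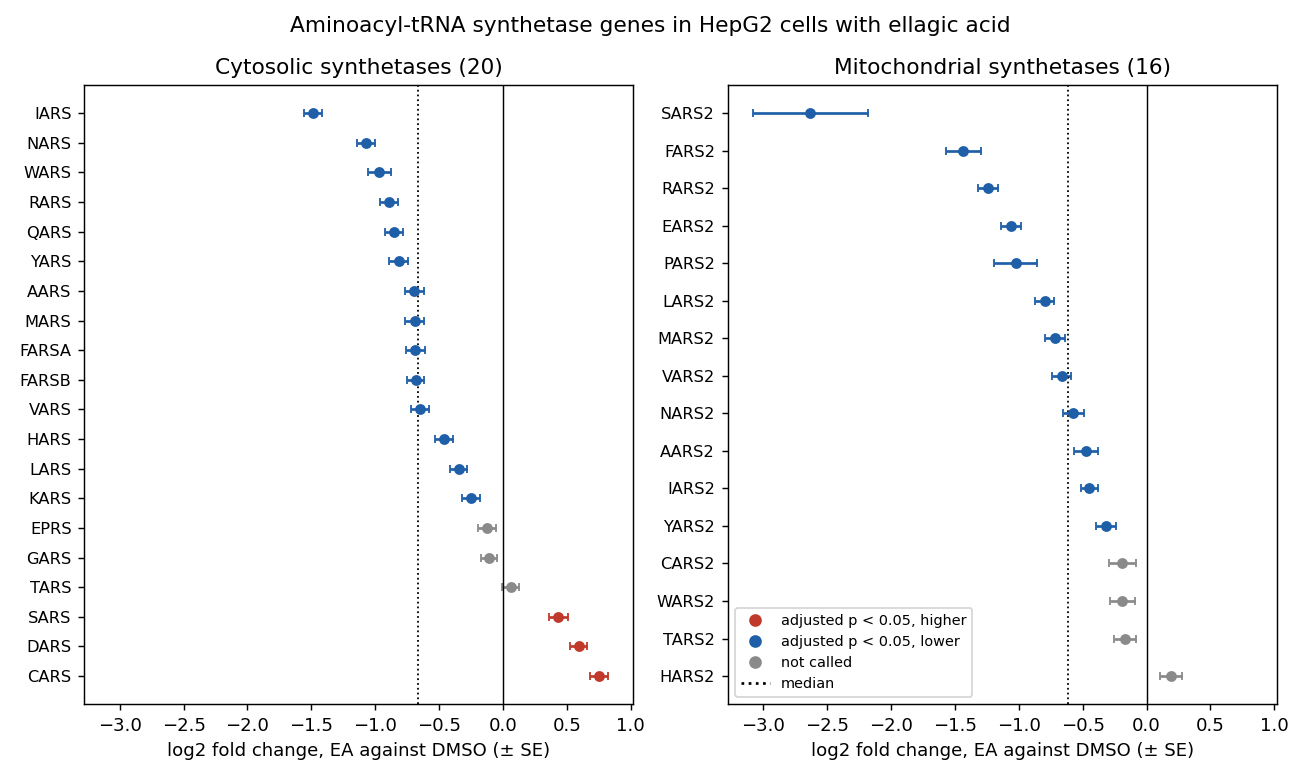
Log2 fold change of each synthetase gene with EA against DMSO (horizontal axis; points are estimates, bars are SEs, n = 3 libraries per group), with cytosolic genes on the left, mitochondrial genes on the right and dotted lines at the group medians of -0.67 and -0.62. CARS, DARS and SARS lie to the right of 0 in the left panel, IARS lies farthest to the left there at -1.49, and SARS2 lies farthest to the left in the right panel at -2.63 with the widest bar.

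The largest cytosolic fall was that of IARS (ENSG00000196305), the isoleucine enzyme and a large subunit of the multisynthetase complex. It was read at 293, 281 and 300.2 CPM with DMSO and at 111, 103 and 97.2 CPM with EA. Every EA library was far under every DMSO library, with a log2 fold change of -1.49 (SE 0.07, adjusted p = 2.40e-11). NARS (ENSG00000134440), the asparagine enzyme, stood at 246, 239 and 239 CPM with DMSO and at 104, 119.95 and 120.5 CPM with EA. Its log2 fold change was -1.07 (SE 0.07), and the groups did not overlap. The gene of asparagine synthetase, ASNS, picked out here after its values were seen because it makes the amino acid that NARS uses, fell as well (-0.83, SE 0.10).

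WARS (ENSG00000140105), the tryptophan enzyme, which is also known as an interferon-inducible gene, was at 86.2, 87.7 and 81.3 CPM with DMSO and at 39.9, 40.4 and 50.1 CPM with EA. EA replicate 3 was the highest of its group and still below all DMSO libraries (log2 fold change -0.97, SE 0.09). RARS (ENSG00000113643), the arginine enzyme of the complex, went from 113, 102 and 115 CPM to 61.2, 60.2 and 56.7 CPM. QARS (ENSG00000172053), the glutamine enzyme of the same complex, went from 284, 283 and 262 CPM to 143, 165 and 149 CPM. Both fell in all EA libraries, with log2 fold changes of -0.89 (SE 0.07) and -0.86 (SE 0.07) and adjusted p of 1.49e-08 and 1.95e-08 in edgeR's test.

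A group of 6 further cytosolic genes fell by close amounts. YARS, the tyrosine enzyme, had a log2 fold change of -0.82, AARS, the alanine enzyme, -0.69 and MARS, the methionine enzyme that also charges the initiator tRNA, -0.69. The pair of subunits of the phenylalanine enzyme, FARSA (catalytic) and FARSB, moved alike, with log2 fold changes of -0.69 and -0.68 (SE 0.07 each) from 84.6 ± 5.51 and 68.1 ± 0.680 CPM with DMSO to 52.6 ± 1.39 and 42.4 ± 1.21 CPM with EA (mean ± SD, n = 3). VARS, the valine enzyme, followed at -0.65. Smaller falls were called for HARS (histidine, -0.46), LARS (leucine, -0.35) and KARS (lysine, -0.25), with adjusted p of 2.96e-05, 0.000239 and 0.00394 in edgeR's test.

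CARS, DARS and SARS rose, against the direction of the other called cytosolic genes. CARS (ENSG00000110619), the cysteine enzyme, was read at 56.8, 56.2 and 51.2 CPM with DMSO and at 91.2, 95.5 and 89.7 CPM with EA. Its log2 fold change was 0.75 (SE 0.07, adjusted p = 8.93e-08), a 1.68-fold rise. DARS (ENSG00000115866), the aspartate enzyme of the multisynthetase complex, went from 136, 123 and 130.1 CPM to 188, 194 and 205 CPM (log2 fold change 0.59, SE 0.07). SARS (ENSG00000031698), the serine enzyme, went from 137, 135 and 132 CPM to 164, 204 and 178 CPM (0.43, SE 0.08). For each of the 3 genes the lowest EA library was above the highest DMSO library. The calls of CARS, DARS and SARS held in all 14 alternative analyses, with log2 fold changes of 0.62 to 0.79, 0.46 to 0.63 and 0.30 to 0.49.

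EPRS, GARS and TARS were not called. EPRS, which joins the glutamate and proline enzymes in a single chain, was at 194 ± 4.54 CPM with DMSO and 177 ± 13.4 CPM with EA (-0.13, SE 0.07). GARS, the glycine enzyme of both compartments, was at 220 ± 6.04 and 204 ± 8.99 CPM (log2 fold change -0.11, SE 0.06). TARS, the threonine enzyme, was at 157 ± 5.12 and 164 ± 9.85 CPM (0.06, SE 0.07). EPRS and GARS passed the threshold as lower without EA replicate 3 (log2 fold changes -0.20 and -0.14, adjusted p 0.00121 and 0.0272 in edgeR's test).

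In the annotation 15 of the 36 genes overlap another gene read at 1 CPM or more, 3 of them on the same strand. DDIT3, which overlaps MARS, and TERF2IP, which overlaps KARS, lie on the opposite strand and rose while MARS and KARS fell (log2 fold changes 0.85 and 1.10). DARS-AS1 rose beside DARS, from 0.644 to 3.39 CPM, far under the level of DARS. ING1, which overlaps CARS2, rose by 1.07 on the log2 scale. The part of these overlaps in the values was not tested.

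Grouping the cytosolic genes by structure gave no group that moved one way throughout. EPRS, whose prolyl part is of class II, was counted with class I for its glutamyl part. Of 10 class I genes 8 fell, 1 rose and 1 was not called, with a median log2 fold change of -0.75. Of 10 class II genes 6 fell, 2 rose and 2 were not called, with a median of -0.36. Among the 8 enzymes of the multisynthetase complex 6 fell, DARS rose and EPRS was not called, so subunits of a single complex ranged from -1.49 to 0.59. The 12 enzymes outside the complex ranged from -1.07 to 0.75, with 8 lower, 2 higher and 2 not called. Over all genes tested 40.5% were called lower and 40.5% higher. These subgroups were not tested against each other.

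Among mitochondrial genes RARS2, FARS2, EARS2 and SARS2 had the largest falls. RARS2 (ENSG00000146282), the arginine enzyme, was read at 57.7, 56.6 and 56.7 CPM with DMSO and at 22.5, 24.9 and 24.9 CPM with EA. FARS2 (ENSG00000145982), the single-chain phenylalanine enzyme, went from 12.1, 13.7 and 11.2 CPM to 4.05, 5.03 and 4.54 CPM. EARS2 (ENSG00000103356), which charges glutamate and also loads glutamate onto the mitochondrial glutamine tRNA, went from 85.2, 87.7 and 81.0 CPM to 38.3, 38.8 and 44.4 CPM. No EA library reached the DMSO range for any of them, and log2 fold changes were -1.24 (SE 0.08), -1.43 (SE 0.14) and -1.06 (SE 0.08). UBFD1, which overlaps EARS2 on the opposite strand, fell from 302 to 117 CPM, and without a stated strand setting for the counting, reads from the overlap cannot be told apart.

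SARS2 (ENSG00000104835), the serine enzyme, had 23, 28 and 28 reads with DMSO and 5, 3 and 1 with EA, or 0.895, 1.22 and 1.10 CPM against 0.311, 0.159 and 0.0528 CPM. The estimated log2 fold change was -2.63, with an SE of 0.45 that was the widest of the 36 genes. It was -3.28 without EA replicate 1 and -2.22 without EA replicate 3. The annotation places another protein-coding gene, AC011455.2, over SARS2 on the same strand. That gene was read at 4.02 ± 0.310 CPM with DMSO and 3.59 ± 1.33 CPM with EA (-0.17, SE 0.24, not called). MRPS12, which overlaps SARS2 on the opposite strand, was read far above SARS2 and fell from 31.97 to 17.9 CPM (-0.84, SE 0.09). EA replicates 2 and 3 were at or under 3 reads for SARS2, the floor used here. No source says how reads shared by overlapping genes were counted, or with which strand setting, so the level of SARS2 is uncertain. The part of the overlaps in the fall was not tested.

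Below these, PARS2 (proline) had a log2 fold change of -1.03, LARS2 (leucine) -0.80, MARS2 (methionine) -0.72, VARS2 (valine) -0.66 and NARS2 (asparagine) -0.57. AARS2 (alanine) stood at -0.47, IARS2 (isoleucine) at -0.45 and YARS2 (tyrosine) at -0.32, all called as lower. CARS2 (cysteine), WARS2 (tryptophan) and TARS2 (threonine) had log2 fold changes of -0.19, -0.19 and -0.17 and were not called (adjusted p 0.108, 0.0931 and 0.0885 in edgeR's test). HARS2, the histidine enzyme, was the only mitochondrial gene with a positive estimate. It was read at 26.1, 27.6 and 26.1 CPM with DMSO and at 29.3, 33.1 and 28.6 CPM with EA, so the EA libraries all lay above the DMSO libraries. Its log2 fold change of 0.19 (SE 0.09) missed the threshold (adjusted p = 0.0558), and it was called as higher in 6 of the 14 alternatives, DESeq2 among them (adjusted p = 0.0441; adjusted p 0.0154 to 0.629 over all 14).

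**Figure D2:**
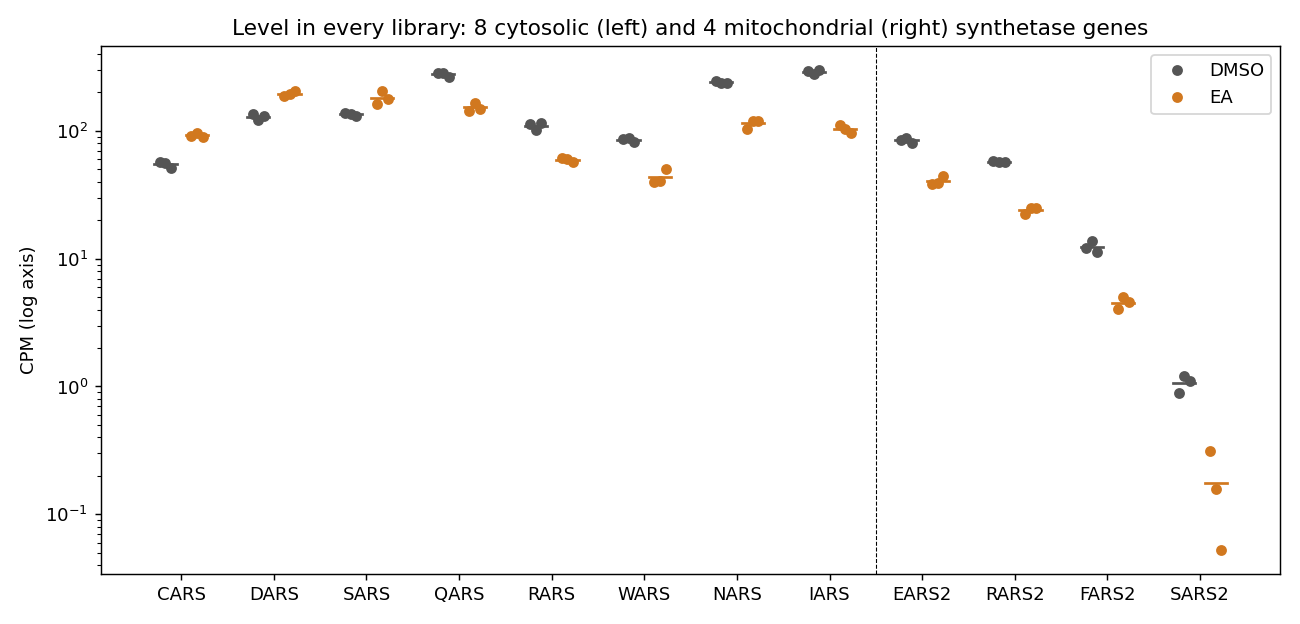
Level in each library (points; CPM on a log axis) with group means (bars) for the 3 cytosolic genes that rose, the 5 with the largest falls and the 4 mitochondrial genes with the largest falls, DMSO in grey and EA in orange. No gene shown has overlapping groups, and SARS2 has the lowest levels and the widest spread with EA, from 0.0528 to 0.311 CPM.

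The summed level of the 20 cytosolic genes was 3374 ± 41.0 CPM with DMSO and 2483 ± 115 CPM with EA, and that of the 16 mitochondrial genes 919 ± 5.06 and 629 ± 13.4 CPM (mean ± SD, n = 3). The ratio of the sums was 3.73, 3.67 and 3.61 with DMSO and 3.80, 4.05 and 3.98 with EA. Each EA ratio was above each DMSO ratio, and the nearest values of the groups were 3.73 and 3.80.

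Levels of different genes were compared per kilobase of exon, using lengths from GENCODE 29. A length joins all annotated exons of a gene, for example 10.0 kb for CARS, 7.85 kb for HARS and 3.37 kb for FARSB. Which transcripts the cells made was not read, so genes with many annotated exons may be placed too low. With DMSO, AARS was the highest cytosolic gene at 70.8 ± 2.54 CPM per kb. KARS, NARS and QARS followed at 59.0 ± 1.68, 59.0 ± 1.07 and 58.7 ± 2.63 CPM per kb, and these 3 did not differ beyond the spread of their libraries. CARS was the lowest at 5.45 ± 0.308 CPM per kb. With EA, KARS, GARS, DARS, SARS and AARS led at 49.5, 49.1, 48.8, 47.4 and 43.7 CPM per kb. Among them each overlapped the next, and AARS was apart from the gene that followed, EPRS at 32.6 CPM per kb. DARS moved from the 11th place to the third, IARS from the sixth to the 14th, and NARS from the third to the ninth. CARS moved from the 20th to the 18th place, and WARS, at 6.84 ± 0.904 CPM per kb, had the lowest mean, though its libraries overlapped those of HARS at 8.17 ± 0.659. In each group 10 of the 19 pairs of neighbours in the cytosolic order overlapped, so a place in it is approximate.

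In mitochondria IARS2 was the highest gene in both groups, at 59.2 ± 3.22 CPM per kb with DMSO and a mean of 43.4 with EA, and was apart from the next gene each time. RARS2 and YARS2 came next with DMSO at 22.4 ± 0.228 and 20.2 ± 0.959 CPM per kb. With EA the order of these genes changed, with YARS2 at 16.2 ± 0.539 and RARS2 at 9.48 ± 0.543 CPM per kb. FARS2, PARS2 and SARS2 were the lowest in both groups. Of the 15 pairs of neighbours in the mitochondrial order, 4 overlapped with DMSO and 10 with EA.

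**Figure D3:**
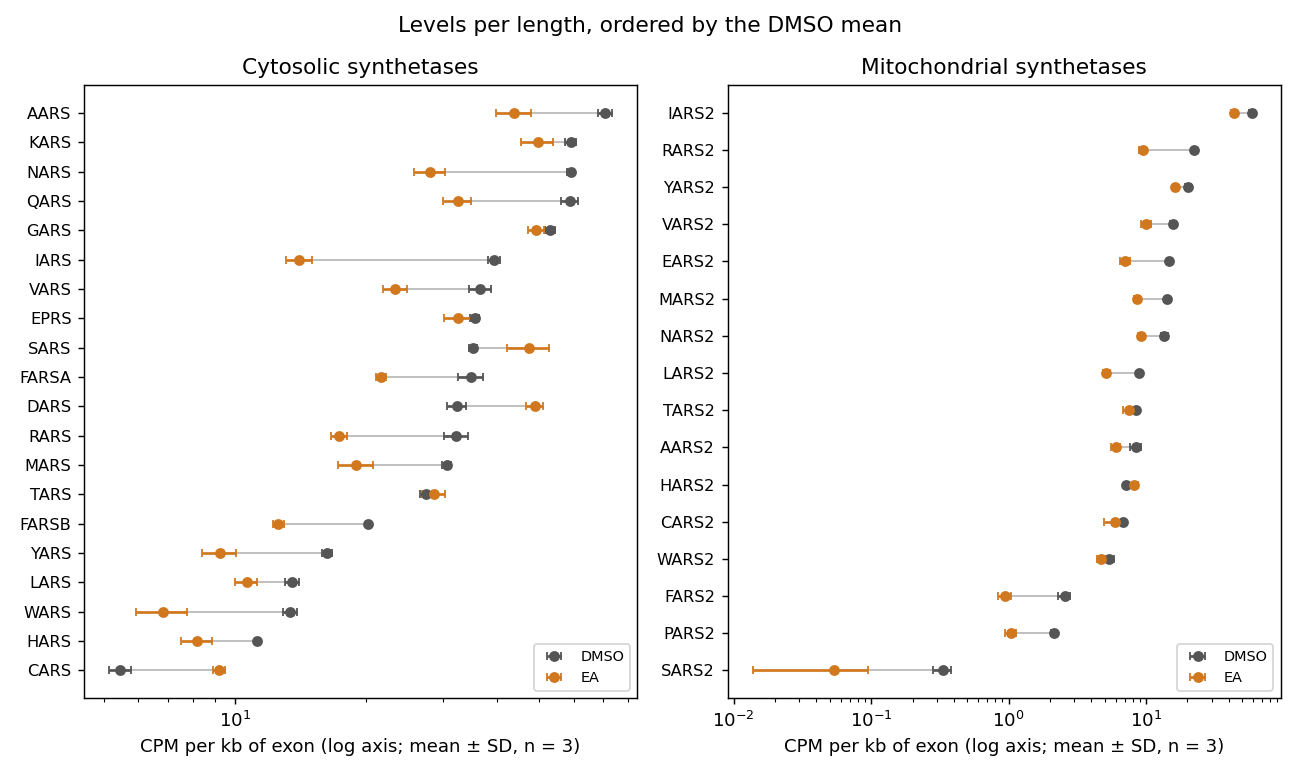
Mean level per kilobase of exon (CPM per kb on a log axis; bars are SDs, n = 3) of each cytosolic (left) and mitochondrial (right) synthetase gene with DMSO (grey) and EA (orange), in the order of the DMSO means. DARS, SARS and CARS have orange points well to the right of the grey ones, TARS and HARS2 only slightly so, IARS has the longest line to the left in the left panel, and the lower bar of SARS2 with EA spans most of its value of 0.0540 CPM per kb.

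For 13 amino acids the list holds a cytosolic and a mitochondrial enzyme with matching names, and the ratio of their reads within a library does not depend on how libraries are scaled. In 6 pairs the ratio was lower in all EA libraries than in all DMSO libraries, in 4 pairs it was higher, and in 3 pairs the groups overlapped. Among single genes the groups did not overlap for 82.9% of all genes tested. The share for ratios of other gene pairs was not computed, so this count does not set the synthetase pairs apart from other genes. With 3 libraries against 3 the two-sided exact permutation test cannot go below p = 0.1, which was the p of each of the 10 pairs apart (0.13 adjusted over the 13 pairs).

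The isoleucine pair moved most among those that fell. IARS was read 1.16, 1.21 and 1.17 times as often as IARS2 with DMSO. With EA it was read 0.639, 0.585 and 0.509 times as often (log2 difference -1.04). The order was thus inverted in reads, which take no account of length. Per kilobase of exon IARS was below IARS2 in both groups, at 39.4 against 59.2 CPM per kb with DMSO and 14.0 against 43.4 with EA. WARS against WARS2 and HARS against HARS2 differed by -0.79 and -0.65 on the log2 scale. HARS and HARS2 overlap on opposite strands in the annotation, and without a stated strand setting reads from their overlap cannot be told apart. YARS, NARS and AARS against their partners differed by -0.50, -0.50 and -0.23.

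The cysteine pair was inverted the other way, in reads and per kilobase of exon. CARS and CARS2 were at 5.45 and 6.83 CPM per kb with DMSO and at 9.18 and 5.99 with EA. CARS was read 0.782, 0.800 and 0.716 times as often as CARS2 with DMSO and 1.31, 1.41 and 1.78 times as often with EA (log2 difference 0.96). RARS against RARS2 and LARS against LARS2 differed by 0.35 and 0.45, since the mitochondrial gene fell further than the cytosolic one. SARS against SARS2 differed by 3.37, the only pair whose members were called in opposite directions, and this value rests on 9 SARS2 reads over the EA libraries. VARS, MARS and TARS against their partners differed by 0.02, 0.02 and 0.23 with overlapping groups.

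**Figure D4:**
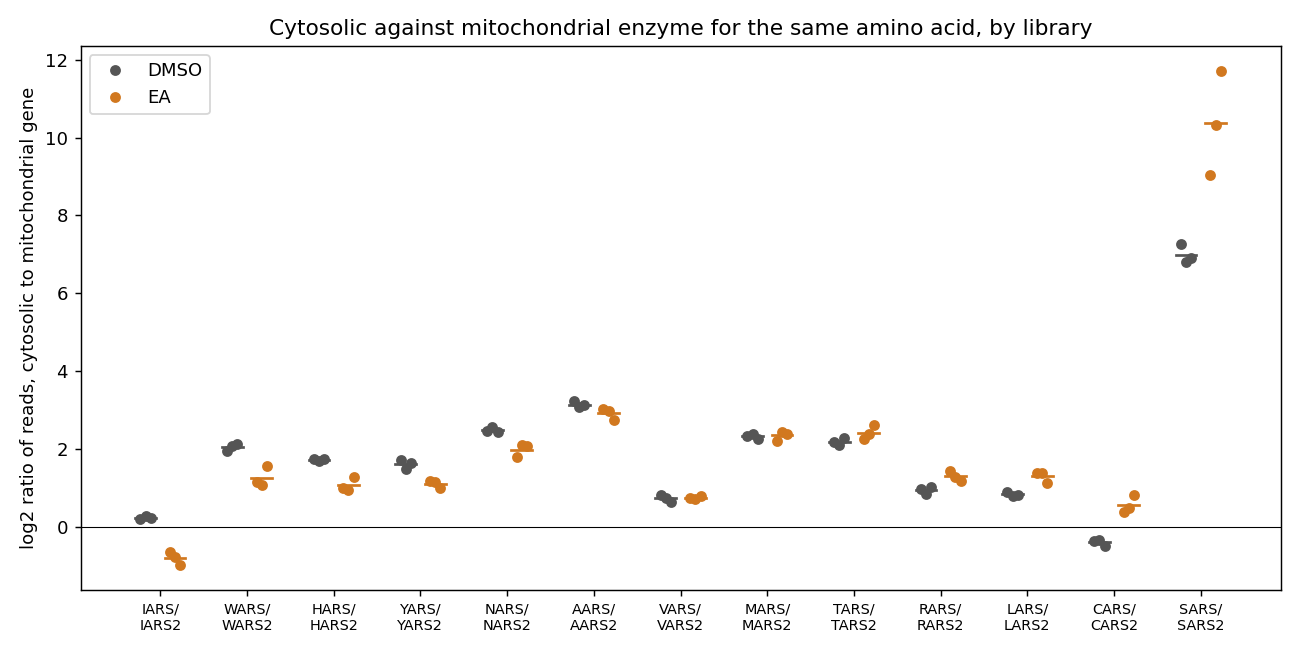
Log2 ratio of reads of the cytosolic to the mitochondrial gene in each library (points; bars are means) for 13 amino acids, DMSO in grey and EA in orange, ordered by the EA minus DMSO difference. The IARS/IARS2 points cross from above 0 to below it with EA, the CARS/CARS2 points cross from below 0 to above it, and VARS/VARS2 and MARS/MARS2 overlap.

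HARS and HARS2 are neighbours that are transcribed away from each other, though their genes in GENCODE 29 overlap on opposite strands. Their RefSeq start sites in GRCh38.p14 lie 84 bases apart, and windows of 250 bases before to 50 bases after each start share 184 bases. The stretch between the starts is shown because both genes read out from it while their estimates had opposite signs (-0.46 for HARS, called, and 0.19 for HARS2, not called). It is chr5:140691371-140691454, written on the strand of HARS2, and capitals mark the letters CCGGAAGT, a form of the site read by ETS factors, on either strand.
HARS and HARS2: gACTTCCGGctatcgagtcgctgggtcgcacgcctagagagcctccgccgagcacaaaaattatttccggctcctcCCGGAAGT
The motif is found once at each end, next to each start. It occurs in 4.14% of the 35116 RefSeq windows of this length and in 4.95% of all genes with a window, in 5 of 16 cytosolic and 3 of 14 mitochondrial synthetase genes that have a window. HARS and HARS2 are each counted there for the same 2 matches. HARS had 88.4 ± 1.13 CPM with DMSO and 64.2 ± 5.18 with EA. WDR55, which overlaps HARS on the opposite strand, rose (log2 fold change 0.51, SE 0.08). ZMAT2, which overlaps HARS2 on the same strand, fell from 3.16 to 1.31 CPM (-1.26, SE 0.23). Without a stated strand setting for the counting, reads from these overlaps and from that of HARS with HARS2 cannot be told apart. The part of the overlaps in the values was not tested.

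The windows were also searched on both strands for TGATGNAA, the core of the amino acid response element that ATF4 binds with a C/EBP partner. Among the cytosolic genes 7 of the 16 with a window held it, while 3.62% of all windows and 4.46% of all genes did. Among mitochondrial genes it was found in 1 of 14, YARS2. The letters CACGTG (an E-box) were found in 1 cytosolic and 3 mitochondrial genes (8.77% of all genes), and the palindromic core of the NRF1 site in 0 and 1 (1.52% of all genes). The 7 cytosolic TGATGNAA matches are shown because the genes that share them went in different directions with EA. Each is given with 11 bases on either side, written on the strand that reads TGATGNAA, with the motif in capitals, and comes from RefSeq on GRCh38.p14.
IARS: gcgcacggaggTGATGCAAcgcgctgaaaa
NARS: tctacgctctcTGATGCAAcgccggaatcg
AARS: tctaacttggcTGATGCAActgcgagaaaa
MARS: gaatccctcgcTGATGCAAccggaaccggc
GARS: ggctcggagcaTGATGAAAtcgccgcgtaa
TARS: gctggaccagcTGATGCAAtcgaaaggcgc
CARS: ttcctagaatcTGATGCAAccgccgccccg
These stretches are chr9:92293692-92293721 on the plus strand for IARS, chr18:57621804-57621833 on the minus strand for NARS and chr16:70289675-70289704 on the plus strand for AARS. For MARS, GARS and TARS they are chr12:57488053-57488082, chr7:30594834-30594863 and chr5:33440956-33440985, all on the minus strand, and for CARS chr11:3057407-3057436 on the plus strand. The log2 fold changes of the 7 genes in this order were -1.49, -1.07, -0.69, -0.69, -0.11, 0.06 and 0.75. Their median was -0.69, beside -0.68 for the 9 cytosolic genes whose windows lack the letters. A match describes the letters only, and binding was not measured.

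Genes that act around the synthetases were read in the same fit. There 81.0% of all genes were called, 40.5% as higher and 40.5% as lower, and the counts of each list below are to be read beside these shares. No list was tested as a set. In the ATF4 list, which leaves the synthetases out, 9 of the 19 tested genes rose, 8 fell and 2 were not called, with a median log2 fold change of 0.02. ATF4 itself was at 387 ± 14.2 CPM with DMSO and was not called (0.02, SE 0.07, adjusted p = 0.821 in edgeR's test), and TRIB3, a pseudokinase that ATF4 induces, was the other gene not called (-0.06, SE 0.07). The serine synthesis enzyme PHGDH fell from 158 ± 6.83 to 16.6 ± 2.59 CPM, and SHMT2, which makes glycine from serine in mitochondria, from 281 ± 11.7 to 75.8 ± 7.43 CPM. SARS, which uses serine, rose beside them. DDIT4 and SESN2, both inhibitors of mTORC1 signalling, rose from 33.0 ± 3.14 and 36.9 ± 3.66 CPM to 116 ± 6.79 and 128 ± 8.72 CPM. CHAC1 was too low to be tested.

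Among 8 genes of uncharged tRNA sensing and eIF2 phosphorylation 5 rose, 2 fell and 1 was not called. The share called, 87.5%, was near the 81.0% of all genes. The count of 5 became 3 without DMSO replicate 1, DMSO replicate 3 or EA replicate 1, and without a filter on low counts. PPP1R15A, the inducible subunit that directs a phosphatase to eIF2, rose from 81.6 ± 5.35 to 460.2 ± 37.0 CPM, and its constitutive relative PPP1R15B from 79.1 ± 2.67 to 147 ± 9.27 CPM. EIF2AK1, the haem-regulated kinase, fell from 220.05 to 119 CPM, and IMPACT, an inhibitor of GCN2 activation, from 7.10 to 3.57 CPM. GCN1, which GCN2 needs to sense uncharged tRNA, was not called (0.01, SE 0.06). The gene of GCN2 itself, EIF2AK4, was called higher by a small amount, from 144 to 163 CPM (0.18, SE 0.06, adjusted p = 0.0126 in edgeR's test).

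The scaffolds AIMP2 and AIMP1 of the multisynthetase complex fell from 27.1 ± 0.440 and 44.6 ± 0.940 CPM to 8.73 ± 1.38 and 23.2 ± 1.54 CPM, while EEF1E1 was not called (0.03, SE 0.16). All 6 tested cofactors of mitochondrial tRNA charging and modification fell. GATB and QRSL1, subunits of the amidotransferase that makes mitochondrial glutaminyl-tRNA from the product of EARS2, had log2 fold changes of -1.14 and -1.19. TRMU, which adds sulphur to tRNA, stood at -0.86, and MTFMT, which formylates the initiator methionyl-tRNA, at -1.07. PTCD1 was not tested.

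Among translation factors that act after charging, all 4 mitochondrial genes fell. TUFM, which delivers the charged tRNA to the ribosome, had a log2 fold change of -1.45 (SE 0.08), and TSFM, GFM2 and GFM1 had log2 fold changes of -1.61, -1.24 and -0.54. Of 5 tested cytosolic factors, EEF1B2 (-1.33) and EEF1A1 (-0.76) fell, EEF1A2 rose from 1.24 ± 0.353 to 9.49 ± 4.89 CPM, and EEF1D (-0.31, SE 0.17) and EEF2 (-0.10, SE 0.08) were not called. EEF1G was listed at 0 in every library. No source says how reads shared by overlapping genes were counted, so neither this 0 nor the low count of PTCD1 shows that the gene is not expressed.

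Of 8 genes of tRNA export and processing 5 fell, 1 rose and 2 were not called. The tRNA exportin XPOT fell from 239 ± 12.5 to 95.6 ± 1.12 CPM, and the tRNA processing genes ELAC2 and TSEN54 had log2 fold changes of -0.92 and -0.77. The tRNA methyltransferase gene NSUN2 was the one that rose (0.18, SE 0.07), a call lost without any single DMSO library without EA replicate 1 or 2, and without a filter on low counts. ELAC1 (-0.53, SE 0.28) and TRNT1 (-0.04, SE 0.09) were not called. The deacylase genes DTD1 and DTD2, which clear D-amino acids and mischarged tRNA, fell by 1.88 and 1.23 on the log2 scale. AARSD1 (-0.72, SE 0.35) and PTRH2 (0.03, SE 0.09) were not called.

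**Figure D5:**
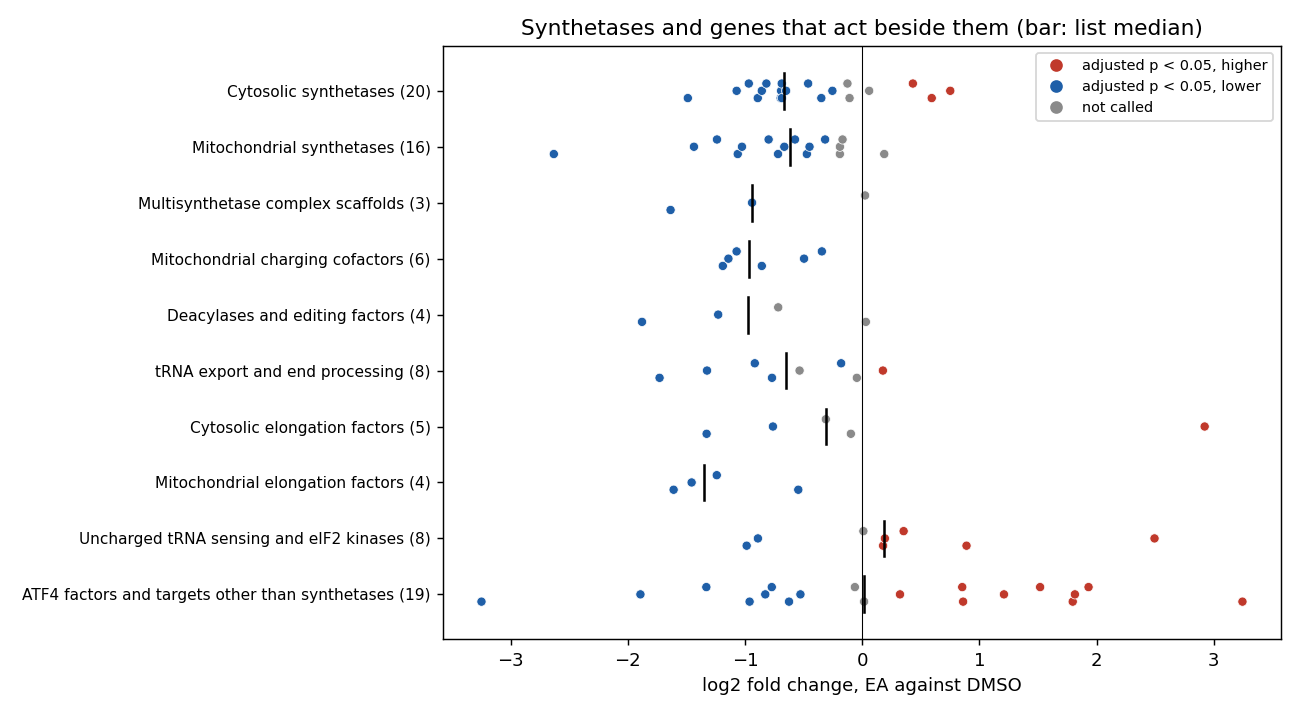
Log2 fold change with EA against DMSO (horizontal axis) of each tested gene in the synthetase groups and in 8 lists of genes that act beside them, with the number of genes in brackets and a bar at each median. All points of the mitochondrial charging cofactors and mitochondrial elongation factors lie left of 0, while the ATF4 list spans -3.25 to 3.25 around a median of 0.02.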

How the data were processed

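The authors deposited raw counts for 6 libraries of HepG2 RNA, as whole numbers of reads for each gene with no scaling. The submitters' processing notes name HISAT and hg19, with cutadapt at version 1.9.1, HTSeq at 0.6.1 and bcl2fastq at 2.17.1.14. No source used here names the annotation release or the strand setting. Count columns were matched to samples by treatment and replicate number. Genes were filtered with filterByExpr, scaled by TMM and tested with edgeR 4.0.16 (glmQLFTest, robust, R 4.3.3) over 15648 genes. Levels are CPM on TMM-scaled library sizes, and a count of 3 reads in 1 library corresponds to 0.117 to 0.187 CPM. The SE is the log2 fold change over the square root of F. The test was also run on simulated data for EA against DMSO (14230 genes). It called 34 of 50 genes with a 1.5-fold change, 46 of 50 at 2-fold, 47 of 50 at 4-fold and 43 of 50 at 8-fold, with 5 false calls. Only these genes were changed in the simulation, as often up as down, and all genes had the same dispersion. In the data 81.0% of genes were called and EA replicate 3 stood apart. The simulation therefore does not give the rate of false calls in this comparison.

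The alternatives were DESeq2 1.42.0, limma-voom (limma 3.58.1), 3 other scalings, 2 other filters, a replicate block and each library left out. The members and lists were chosen with earlier results of these data known. All members are named; values by library are given for the 5 cytosolic and 4 mitochondrial called genes with the largest increases and decreases, and up to 4 called genes with the smallest p per list. Some genes of the lists are not reported here by name. HARS2, IARS2 and CARS2 values by library or as ratios, GARS, EPRS and TARS levels, NSUN2, EIF2AK4 and ASNS were given after their values were seen. Exon lengths and overlaps are those of GENCODE 29 (GRCh38, not the hg19 of the counts), and promoter sequences from RefSeq on GRCh38.p14, with a window for 16 of 20 cytosolic and 14 of 16 mitochondrial genes. Of 14 pseudogenes named after a member, 9 had 0 reads.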

Additional observations from a re-analysis of the deposited data

How the results depend on the processing

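Of the 36 synthetase genes, 30 kept their call under every one of the 14 alternatives that gave a value, and the other 6 were genes not called in the main analysis (EPRS, GARS, CARS2, WARS2, TARS2 and HARS2) that passed the threshold in some. The counts of cytosolic genes lower and higher with EA ran from 14 to 16 and stayed at 3, and mitochondrial genes called lower from 11 to 15. The count of mitochondrial genes called higher went from 0 to 1 with DESeq2, RLE scaling, upper-quartile scaling, total library size, the filter of 1 CPM in 3 libraries and without EA replicate 3; leaving out each library in turn gave 0 to 1. That gene was HARS2 in each case. Without a filter, the log2 fold changes of all genes shifted by -0.13 and the medians of cytosolic and mitochondrial genes moved to -0.80 and -0.75. The filter of 1 CPM in 3 libraries moved the mitochondrial median to -0.53. SARS2 was then not tested, and all genes shifted by 0.04. Replicate numbers are not said to pair the samples, and deviations of same-numbered libraries correlated at -0.08, 0.03 and -0.02. For EA against DMSO, all genes, a replicate block called 12537 in place of 12680, and for the synthetases it called 17 cytosolic and 12 mitochondrial genes, as without it. Of 13 pairs, 10 to 12 had ratios apart when a library was left out.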
